A study of Homo sapiens with 4 samples.

Results

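The Kruppel-like factor (KLF) family in MV4-11 cells was examined through 10 of its genes, KLF2, KLF3, KLF4, KLF6, KLF7, KLF9, KLF10, KLF11, KLF13 and KLF16. The members were taken by gene symbol from the 23622 genes of the deposited table by a rule that uses no measured value, although the family was picked with earlier results of these data known. All 10 were in the table and all 10 passed the filter on low values. MV4-11 is a human acute myeloid leukemia cell line. Total RNA was sequenced from 2 libraries labelled NC, which the labels describe as untreated wild-type cells, and from 2 libraries labelled sh-IRF1, wild-type MV4-11 cells with a short hairpin RNA knockdown of the transcription factor IRF1. The study delivered its hairpins with a lentiviral vector, and both its text and the columns of the deposited table call the control sh-NC, the name of a control hairpin, while the sample labels give these cells no treatment. The hairpin behind each sh-IRF1 library is not named in the sources used here, and nothing says that the libraries of a group came from separate cultures, so p-values measure only the spread between these libraries, which may be technical.

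KLF proteins are transcription factors that bind GC boxes and CACCC boxes through zinc fingers at the carboxyl end, and they share these sites with the SP factors. The family is divided by what its other end recruits. KLF3 belongs to a class of repressors that bind the corepressor CtBP, KLF2, KLF4, KLF6 and KLF7 are mostly described as activators, and KLF9, KLF10, KLF11, KLF13 and KLF16 bind the corepressor SIN3A. In blood cells, KLF2 is known for quiescence and trafficking of lymphocytes, KLF4 for monocyte differentiation and KLF6 for macrophage responses. Because the same sites are read by activators and repressors of the family, the levels of the members are of interest together.

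RefSeq promoter windows on GRCh38.p14, from 250 bases before to 50 bases after an annotated start, were matched for 8 of the 10 members, with 12 windows in all. KLF3 and KLF10 were not matched. Below are 4 windows, shown because KLF4, KLF6 and KLF13 are called members whose windows hold a motif and KLF2 holds a MEF2 element beside its GC boxes. The window of KLF9, also a called member, holds no motif and is not printed. They lie at chr19:16324576-16324875 on the plus strand for KLF2, chr9:107489720-107490019 on the minus strand for KLF4, chr10:3785160-3785459 on the minus strand for KLF6 and chr15:31326585-31326884 on the plus strand for KLF13. Each is written 5′ to 3′ along the gene. Capitals mark matches on either strand to the GC box GGGCGG and the CACCC box, and in KLF2 also the MEF2 element CTANNNNTAG.
KLF2: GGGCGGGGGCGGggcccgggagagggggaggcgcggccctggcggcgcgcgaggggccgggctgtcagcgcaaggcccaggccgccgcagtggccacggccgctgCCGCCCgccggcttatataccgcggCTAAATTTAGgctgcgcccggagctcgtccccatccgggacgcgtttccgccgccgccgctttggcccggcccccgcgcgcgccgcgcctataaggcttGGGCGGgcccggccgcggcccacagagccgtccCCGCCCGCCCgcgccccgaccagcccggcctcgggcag
KLF4: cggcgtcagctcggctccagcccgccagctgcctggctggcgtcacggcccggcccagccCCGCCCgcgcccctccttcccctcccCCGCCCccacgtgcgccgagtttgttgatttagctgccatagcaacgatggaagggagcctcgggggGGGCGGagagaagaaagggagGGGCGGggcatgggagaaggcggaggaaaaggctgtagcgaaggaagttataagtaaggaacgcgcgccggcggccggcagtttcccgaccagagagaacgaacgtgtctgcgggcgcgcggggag
KLF6: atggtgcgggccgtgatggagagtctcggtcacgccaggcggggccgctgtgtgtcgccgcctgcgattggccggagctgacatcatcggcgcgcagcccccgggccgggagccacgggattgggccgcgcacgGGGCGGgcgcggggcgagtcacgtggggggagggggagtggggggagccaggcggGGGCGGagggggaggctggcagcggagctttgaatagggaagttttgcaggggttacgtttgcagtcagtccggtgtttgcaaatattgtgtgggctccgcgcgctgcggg
KLF13: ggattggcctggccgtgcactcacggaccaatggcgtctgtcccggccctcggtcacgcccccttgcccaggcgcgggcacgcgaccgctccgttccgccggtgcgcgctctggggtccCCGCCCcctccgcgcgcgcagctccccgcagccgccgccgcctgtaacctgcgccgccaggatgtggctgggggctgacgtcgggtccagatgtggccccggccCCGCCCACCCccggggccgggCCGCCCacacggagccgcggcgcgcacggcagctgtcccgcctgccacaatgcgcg

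The GC box was found in 8 of the 12 member windows, from 7 members, and in 45% of the 35116 human promoter windows of this length. It stood 6 times in the KLF2 window, 4 times in KLF4, 2 times in KLF6, 3 times in KLF13 and 7 times in KLF16. The windows of KLF11 held 2 and 7 GC boxes, and 1 of the 4 windows of KLF7 held 4. The CACCC box was found in 5 of the 12 windows, from 3 members, and in 59.9% of all windows, and in KLF13 it overlaps a GC box. The MEF2 element, named for the MEF2 factors that are known to drive KLF2 downstream of the kinase ERK5, was found in 2 member windows. It was found in 2.73% of all windows. Any base was allowed at N in its pattern, so a match need not be a site of these factors. In KLF2 it is the run CTAAATTTAG, upstream of the start, and the other match is in a KLF11 window. The IRF element GAAANNGAAA was found in 0 of the 12 member windows and in 3.57% of all windows. KLF9 had the window with the lowest GC content of the 12, at 32.7%, against 58.7% in the median of all windows and 80.7% in KLF2. It held none of these motifs, nor did 1 of the 4 windows of KLF7. These matches describe letters in the windows and not bound sites.

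**Figure D1:**
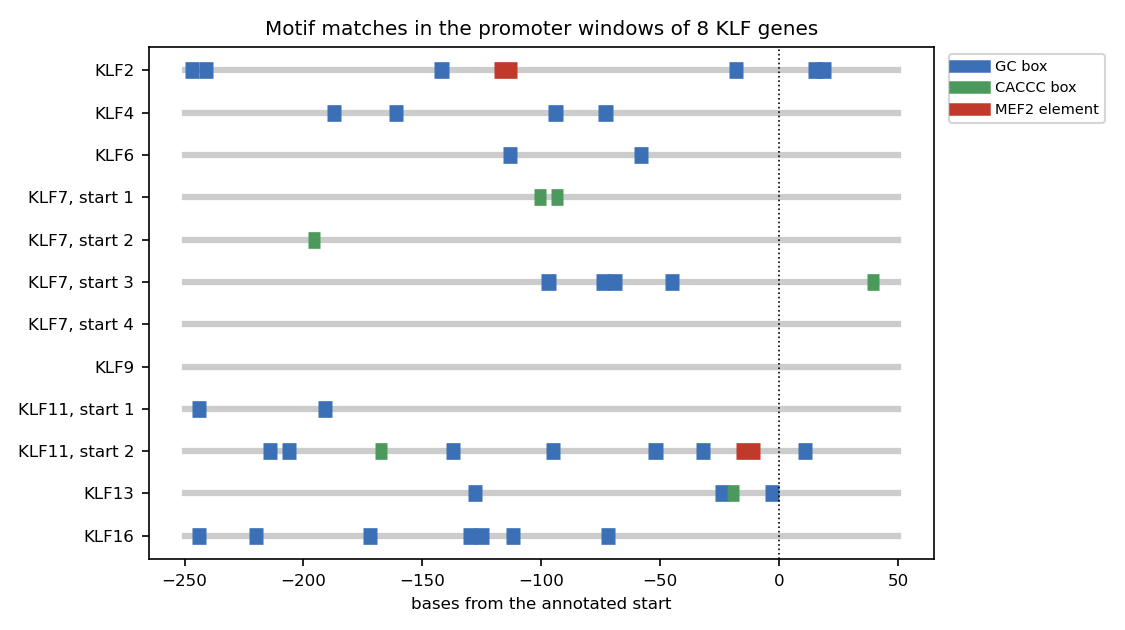
Motif matches in the 12 promoter windows of 8 KLF genes, by distance in bases from the annotated start (dotted line), with blue for the GC box, green for the CACCC box and red for the MEF2 element. KLF16 and 1 window of KLF11 hold 7 GC boxes each, KLF9 and 1 window of KLF7 hold no match, and the MEF2 element is in KLF2 and in 1 window of KLF11.

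The values are reads per gene divided by 1 size factor per library and are called normalized counts here. The libraries held between 17635908 and 18695337 reads. All 8 myeloid markers looked for (PTPRC, CD33, SPI1, CEBPA, FLT3, LYZ, CSF1R and CD4) were present. The fibroblast gene COL1A1, a marker of another cell type, had 0 to 5 reads. IRF1, the targeted gene (ENSG00000125347, chr5:132440440-132508719), had normalized counts of 785 and 738 in NC and 430 and 432 in sh-IRF1, so that both sh-IRF1 libraries were below both NC libraries. The level in sh-IRF1 was 56.6% of that in NC (log2 fold change -0.82, SE 0.0904, n = 2 per group, limma adjusted p = 1.69e-10). Its reads are uncertain to a degree, as other genes overlap 22.9% of its exonic bases, of which the antisense gene IRF1-AS1 had 21 to 33 reads.

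Of the 10 KLF genes, KLF3, KLF4, KLF9 and KLF13 fell and KLF6 rose after IRF1 knockdown, at an adjusted p under 0.05 by limma over the 14120 genes tested. KLF3 and KLF4 came down to 51.5% and 56.9% of the NC level, KLF9 to 69.1% and KLF13 to 76.4%, while KLF6 reached 165%. KLF2, KLF7, KLF10, KLF11 and KLF16 were not called. The members called came from every class, with KLF3 that binds CtBP, the activators KLF4 and KLF6, and KLF9 and KLF13 that bind SIN3A. Within the activators, KLF4 fell and KLF6 rose. Over all genes tested, 20.3% were called higher and 21.9% lower, 42.2% in either direction. The count of 5 called among 10 members is near this background and is not a result about the family as a whole. With the further condition of a log2 fold change beyond 0.5, 1 member was higher and 3 were lower, where 8.27% and 7.56% of all genes were. The median log2 fold change of the 10 members was -0.06 and that of all genes tested -0.0019. The members' median was -0.13 without sh-IRF1 replicate 2 and -0.013 with libraries scaled by total reads. In bulk RNA, fewer cells of a type and less RNA per cell cannot be told apart.

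**Figure D2:**
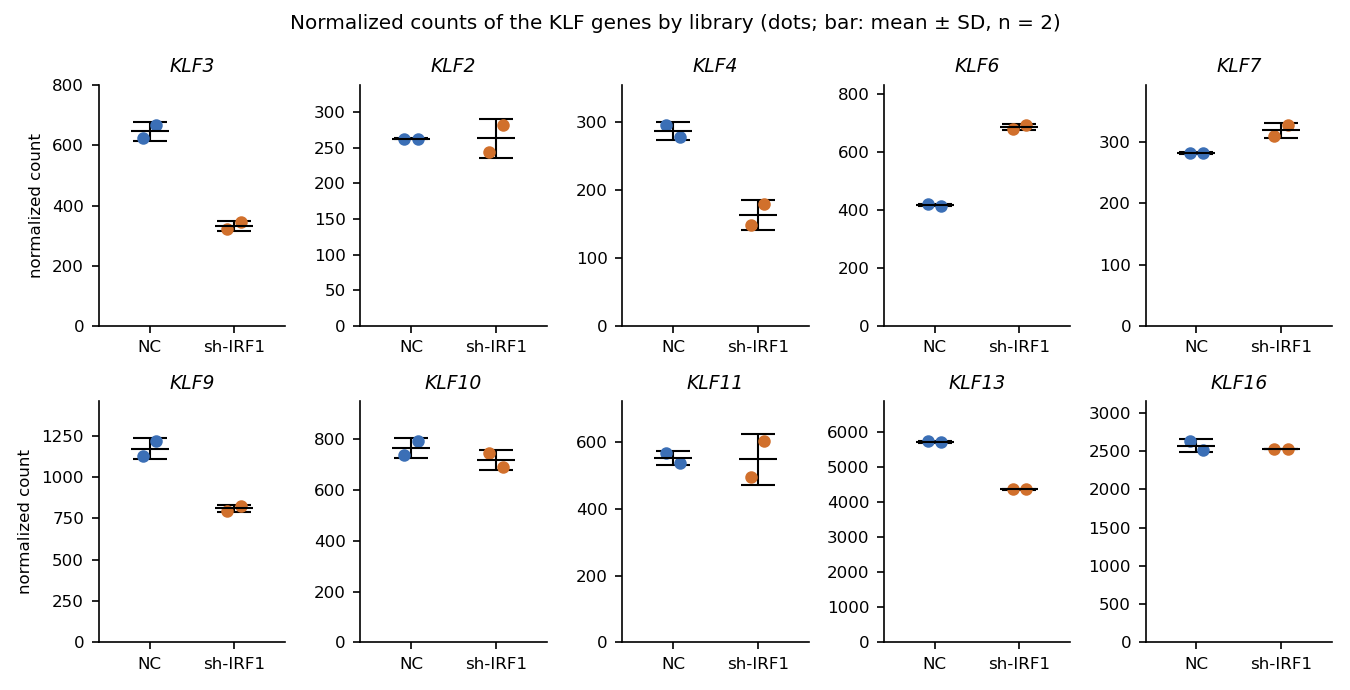
Normalized counts of the 10 KLF genes in NC (blue) and sh-IRF1 (orange) libraries, 1 dot per library, with horizontal bars for the mean and the SD (n = 2 per group) and each axis starting at 0. The groups stand apart downward in KLF3, KLF4, KLF9 and KLF13 and upward in KLF6 and, by a smaller step, KLF7, and they overlap in the other 4 genes.

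KLF3, the CtBP-binding repressor (ENSG00000109787, chr4:38664197-38701517, plus strand), had normalized counts of 625 and 669 in NC and 321 and 345 in sh-IRF1. Both sh-IRF1 libraries lay far below both NC libraries, and the fall was the largest of the 10 members. The log2 fold change was -0.96 (SE 0.101, 95% interval -1.16 to -0.75, limma adjusted p = 4.89e-11), from 647 ± 31.1 to 333 ± 16.6 (SD, n = 2). KLF3 shares 3.91% of its exonic bases with the antisense gene KLF3-AS1. That gene had 1 and 2 reads in NC and 6 in each sh-IRF1 library, few beside those of KLF3.

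Among the activators, KLF4, a factor of monocyte differentiation and of pluripotency (ENSG00000136826, chr9:107484852-107490482, minus strand), had normalized counts of 296 and 278 in NC and 148 and 179 in sh-IRF1. The groups did not overlap, although the sh-IRF1 libraries differed from each other more than the NC libraries did. The means were 287 ± 12.8 and 164 ± 21.7 (SD, n = 2), with a log2 fold change of -0.81 (SE 0.147, 95% interval -1.11 to -0.52, limma adjusted p = 1.03e-05). An antisense long non-coding gene overlaps 9.75% of the exonic bases of KLF4, and the use of strand in the counting is not given in the sources used here.

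KLF6, known as a tumor suppressor and as a regulator of inflammatory genes in macrophages (ENSG00000067082, chr10:3775996-3785281, minus strand), went the other way. Its normalized counts were 421 and 414 in NC and 680 and 694 in sh-IRF1. Libraries of a group were close to each other and the step between the groups was wide. The log2 fold change was 0.72 (SE 0.0930, 95% interval 0.53 to 0.91, limma adjusted p = 1.01e-08), from 417 ± 4.70 to 687 ± 9.84 (SD, n = 2). KLF6 was the only called increase among the 10, and no other gene overlaps its exons.

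KLF2, the lymphocyte quiescence factor (ENSG00000127528, chr19:16324826-16328685), had normalized counts of 263 and 262 in NC and 244 and 282 in sh-IRF1. The sh-IRF1 libraries lay on either side of the NC libraries. The log2 fold change was -0.00049 with a 95% interval of -0.27 to 0.27 (limma adjusted p = 0.998), that is, a fold between 0.830 and 1.20. KLF7, described in neurons and in blood progenitors (ENSG00000118263, chr2:207074137-207173856), had 281 and 282 in NC and 310 and 328 in sh-IRF1. Both sh-IRF1 libraries were above both NC libraries, but the log2 fold change of 0.18 (SE 0.123, 95% interval -0.07 to 0.43) did not pass the test (limma adjusted p = 0.254). Such an order of libraries was common. Both sh-IRF1 libraries lay above both NC libraries in 34.2% of all genes tested and below them in 35.0%, against 2 and 4 of the 10 members.

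**Figure D3:**
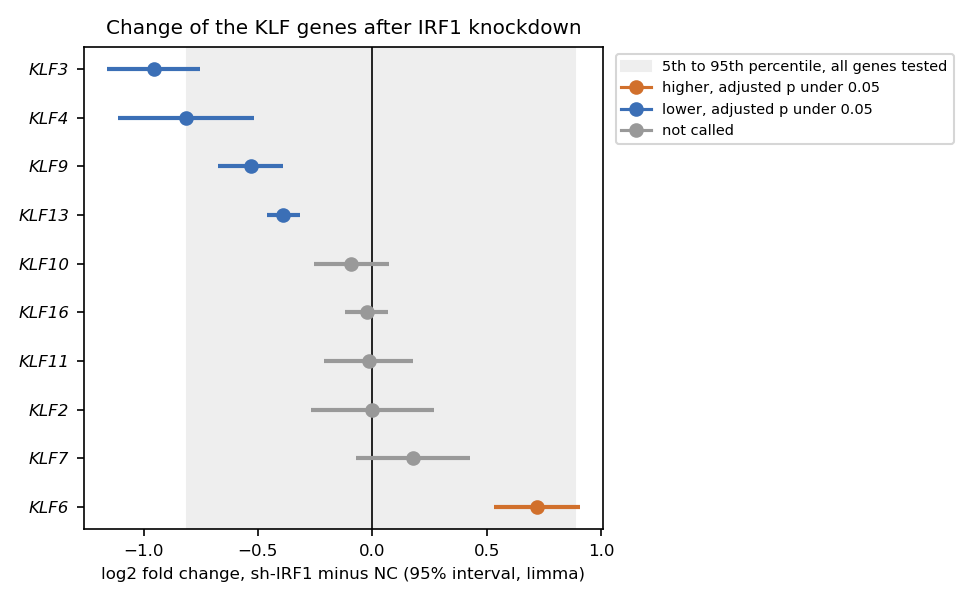
Log2 fold change of each KLF gene (sh-IRF1 minus NC, limma on log2(normalized count + 1)) with its 95% interval, orange for called higher, blue for called lower and grey for not called. The grey band holds the 5th to 95th percentile of all 14120 genes tested, from -0.810 to 0.89. KLF3 lies outside it, and KLF4 at -0.815 lies just outside its lower edge.

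In the class that binds SIN3A, KLF9 and KLF13 fell. KLF9, known as a gene induced by glucocorticoid and thyroid hormone (ENSG00000119138, chr9:70384604-70414657, minus strand), had normalized counts of 1128 and 1217 in NC and 797 and 825 in sh-IRF1. The groups were well apart. The means were 1173 ± 62.8 and 811 ± 19.6 (SD, n = 2), and the log2 fold change was -0.53 (SE 0.0708, limma adjusted p = 2.01e-08). KLF13, first described as an activator of the chemokine gene CCL5 in T cells (ENSG00000169926, chr15:31326835-31435665, plus strand), had 5730 and 5696 in NC and 4357 and 4371 in sh-IRF1. Its fall was smaller in size than those of KLF3, KLF4 and KLF9, yet it had the smallest p of the 10 members. It also had the highest normalized counts of the 10, and the libraries of a group nearly coincided. The log2 fold change was -0.39 (SE 0.0365, 95% interval -0.46 to -0.32, limma adjusted p = 1.70e-12). CCL5, looked at for this link after its values were seen, fell from 1247 and 1304 normalized counts in NC to 915 and 962 in sh-IRF1 (log2 fold change -0.44, limma adjusted p = 3.23e-07). KLF13 and CCL5 were thus both lower, and a relation between them was not tested.

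The other members of this class were not called. KLF10, a gene induced early by TGF-beta, had normalized counts of 740 and 793 in NC and 747 and 691 in sh-IRF1, with overlapping groups (log2 fold change -0.09, 95% interval -0.25 to 0.07, limma adjusted p = 0.386). KLF11, its closest relative, had 567 and 537 in NC and 494 and 602 in sh-IRF1, so that the sh-IRF1 libraries bracketed the controls (log2 fold change -0.02, 95% interval -0.21 to 0.18, limma adjusted p = 0.911). KLF16 had 2629 and 2511 in NC and 2526 and 2528 in sh-IRF1 (log2 fold change -0.02, 95% interval -0.12 to 0.07, limma adjusted p = 0.713). The interval of KLF16 was the narrowest of the 5 members not called, a fold between 0.922 and 1.05. Its reads are uncertain, since an antisense gene overlaps 16.3% of its exonic bases. For KLF2, KLF11 and KLF16 the sign of the fold change was not stable, and it turned positive when the libraries were scaled by total reads.

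Levels were compared between genes per kb of merged exons, as normalized counts per kb. In NC, KLF16 stood highest with 867 per kb, followed by KLF13 with 606, KLF9 with 225, KLF10 with 201 and KLF11 with 120. KLF3 with 95.5 and KLF2 with 93.0 could not be put in order, because their libraries overlapped. KLF4 with 78.5, KLF6 with 68.0 and KLF7 with 29.3 per kb were lowest. SIN3A-binding members thus took the 5 highest places in NC. In sh-IRF1 the order began with KLF16 at 852 and KLF13 at 463 per kb, and KLF10 at 188 now stood above KLF9 at 156. KLF6 moved from the ninth to the sixth place at 112 per kb, a level that overlapped with that of KLF11 at 119. KLF2 at 93.2 stood above KLF3 at 49.2 and KLF4 at 44.7, which overlapped each other, and KLF7 remained last at 33.2. Some neighbours depended on the length used. Per kb of the longest transcript, KLF4 at 97.9 stood above KLF2 at 93.0 in NC, and KLF6 at 150 above KLF11 at 136 in sh-IRF1.

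Summed over the 10 members, the level was 2392 and 2374 normalized counts per kb in NC and 2087 and 2134 in sh-IRF1. Both sh-IRF1 libraries were lower, at 88.6% of NC in the mean (2383 ± 13.0 against 2110 ± 32.7, SD, n = 2). An exact two-sided permutation test gave p = 0.333, the smallest that 2 against 2 libraries allow, so this difference cannot pass a threshold. The mean shares of the members in the sum also differed between the groups. For each share given here the same exact permutation test gave p = 0.333, so none can pass a threshold. KLF6 went from 2.85% to 5.31% of the summed level, KLF16 from 36.4% to 40.4% and KLF2 from 3.90% to 4.41%. KLF13 went from 25.4% to 21.9%, KLF9 from 9.46% to 7.38%, KLF3 from 4.01% to 2.33% and KLF4 from 3.29% to 2.11%. The shares of KLF16 and KLF2 were thus larger in sh-IRF1 although the level of neither gene was called as changed.

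**Figure D4:**
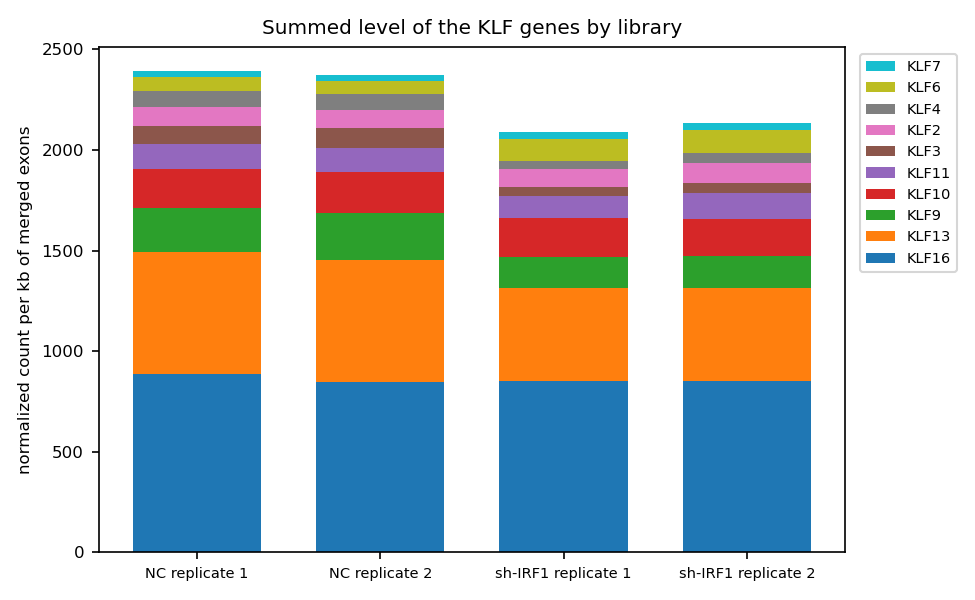
Summed level of the 10 KLF genes in each library, in normalized counts per kb of merged exons, stacked by gene. The NC libraries reach 2392 and 2374 and the sh-IRF1 libraries 2087 and 2134, with KLF16 and KLF13 making up the largest parts in every library.

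The further KLF genes were at low levels in these cells. Of 8 further KLF genes, KLF1, KLF5, KLF12 and KLF15 could be tested, and KLF8, KLF14, KLF17 and KLF18 were not analysed here. KLF5, an activator best known in epithelia and smooth muscle, rose from 48.2 and 46.2 normalized counts in NC to 86.5 and 108 in sh-IRF1 (log2 fold change 1.02, SE 0.255, limma adjusted p = 0.000992). Without sh-IRF1 replicate 2 the log2 fold change was 0.86 and the call was lost (limma adjusted p = 0.0568). KLF1, the erythroid factor, was at 27.7 and 28.8 in NC and 11.9 and 10.3 in sh-IRF1 (log2 fold change -1.27, limma adjusted p = 0.0317). KLF15 was at 42.1 and 23.6 in NC and 14.9 and 13.1 in sh-IRF1 (log2 fold change -1.12, limma adjusted p = 0.0439). Both calls are weak, with 11 to 41 reads per library. Leaving out any 1 library brought the limma adjusted p of KLF1 to between 0.0603 and 0.106, with log2 fold changes of -1.18 to -1.37, and KLF15 without NC replicate 1 had a log2 fold change of -0.72 (limma adjusted p = 0.366). DESeq2 gave adjusted p-values of 0.0796 for KLF1 and 0.0904 for KLF15. KLF12, a repressor, had 16.4 to 17.4 normalized counts in NC and 12.2 and 28.8 in sh-IRF1 and was not called (adjusted p = 0.842 by limma).

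Of the SP factors, which read the same GC boxes, 4 could be tested and 1 was called. SP3 had normalized counts of 2158 and 2004 in NC and 1755 and 1720 in sh-IRF1 (log2 fold change -0.26, SE 0.0531, limma adjusted p = 7.27e-05). This fall was smaller than that of any called KLF member. Without the variance trend and robust shrinkage the call of SP3 was lost (limma adjusted p = 0.0841). SP1, the most general of these factors, had 2358 and 2690 in NC and 2360 and 2475 in sh-IRF1 and was not called (log2 fold change -0.06, limma adjusted p = 0.374), nor were SP2 and SP4 (limma adjusted p = 0.814 and 0.263). Without NC replicate 1, SP1 was called lower (log2 fold change -0.15, limma adjusted p = 0.0206), so that 2 SP genes were. SP5, SP6, SP7 and SP8 had 0 to 7 reads per library and were not tested, and SP9 was not analysed here. The median log2 fold change was -0.11 over the 4 SP genes and -0.49 over the 4 further KLF genes tested.

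Upstream of KLF2 and KLF4 lies the route from the kinase ERK5 to the MEF2 factors, whose element stands in the KLF2 window printed above. Of its 8 genes, all tested, 3 were higher, 2 were lower and 3 were not called, with a median log2 fold change of 0.08. The higher count rests on single libraries, with 0 higher without sh-IRF1 replicate 2 and 1 without NC replicate 1. MEF2C, a myeloid and lymphoid member, had normalized counts of 3101 and 3290 in NC and 2084 and 1945 in sh-IRF1 (log2 fold change -0.67, limma adjusted p = 4.25e-16). MEF2A had 1465 and 1402 in NC and 835 and 761 in sh-IRF1 (log2 fold change -0.85, limma adjusted p = 1.76e-14). Both fell well beyond the spread between libraries. MEF2D, with the highest normalized counts of the route, went the other way by a small step. It had 10732 and 10909 in NC and 11464 and 11468 in sh-IRF1 (log2 fold change 0.08, limma adjusted p = 0.0169), and was named after its values were seen. LYSMD4 overlaps 11.1% of the exonic bases of MEF2A, whose reads are uncertain to that degree. The kinase MAP3K3, which feeds ERK5, rose from 1018 and 1069 to 1199 and 1341 (log2 fold change 0.28, limma adjusted p = 0.000574). Without sh-IRF1 replicate 2 it was at 0.20 and the call was lost (limma adjusted p = 0.0714). Beside these values, KLF4 was lower and KLF2 was not called.

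The route from TGF-beta to KLF10 and KLF11 had 8 genes tested, of which 4 were higher, 1 was lower and 3 were not called (median log2 fold change 0.15). The ligand gene TGFB1 fell from 13962 and 14423 normalized counts in NC to 8918 and 8728 in sh-IRF1 (log2 fold change -0.69, limma adjusted p = 2.51e-24). SMAD3, a signal transducer, rose to 131% of NC (log2 fold change 0.39, limma adjusted p = 1.40e-06). SMAD7, an inhibitor of the pathway that KLF10 is described to repress, rose to 143% (log2 fold change 0.52, limma adjusted p = 6.61e-05). Over all genes tested, 20.3% were called higher and 21.9% lower, so calls in both directions are common to lists. Without the variance trend and robust shrinkage, 2 genes of the route were higher and 1 was lower. Neither KLF10 nor KLF11 was called.

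Among 10 corepressors and coactivators that KLF proteins bind, 1 was higher, 4 were lower and 5 were not called (median log2 fold change -0.11). The split depends on the scaling, with 4 higher and 3 lower under total reads, and 2 were higher without NC replicate 1. SIN3A, the partner of the class of KLF9 and KLF13, had 2878 and 3074 normalized counts in NC and 2336 and 2433 in sh-IRF1 (log2 fold change -0.32, limma adjusted p = 1.70e-07). Without the variance trend and robust shrinkage the call of SIN3A was lost (limma adjusted p = 0.062). The deacetylase gene HDAC2, whose product works with SIN3A, fell to 67.5% of NC (log2 fold change -0.57, limma adjusted p = 1.15e-14). CTBP2, which encodes a partner of KLF3, had 1318 and 1440 in NC and 769 and 781 in sh-IRF1 (log2 fold change -0.83, limma adjusted p = 4.38e-14). Its reads are uncertain, since 34.2% of its exonic bases overlap other genes and named pseudogenes are in the table. HDAC1, the paralog of HDAC2, was also called lower, by a smaller step (log2 fold change -0.13, limma adjusted p = 0.00478), and was named after its values were seen. The paralogs of SIN3A and CTBP2 were not called. CTBP1, with more reads than CTBP2 and 14.3% of its exonic bases overlapped, was at 104% of NC (limma adjusted p = 0.279) and SIN3B at 108% (limma adjusted p = 0.141), both named after their values were seen.

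Ubiquitin ligases control how long KLF proteins last. Of 7 described to act on them, all tested, 1 was higher, 2 were lower and 4 were not called (median log2 fold change -0.04). With a library left out, 0 to 2 were higher and 1 or 2 were lower. WWP1, a ligase described for KLF2 and KLF5, fell to 79.3% of NC (log2 fold change -0.33, limma adjusted p = 0.00228) and VHL, with 23.5% of its exonic bases overlapped by another gene and so uncertain reads, to 87.9% (log2 fold change -0.18, limma adjusted p = 0.00625). BTRC rose to 136% (log2 fold change 0.44, limma adjusted p = 0.0157). The call of BTRC was lost without NC replicate 1 (adjusted p = 0.0665) or sh-IRF1 replicate 2 (adjusted p = 0.199), and that of VHL without NC replicate 2 (adjusted p = 0.161) or sh-IRF1 replicate 2 (adjusted p = 0.146), all by limma. RNA levels of these genes say nothing of the amount of KLF protein, which was not measured in these libraries.

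Of 11 tested genes described as targets of KLF proteins, 2 were higher, 5 were lower and 4 were not called, and the median log2 fold change was -0.40. Over all genes tested, 20.3% were called higher and 21.9% lower, with a median of -0.0019. Whether these targets followed the KLF genes was not tested. THBD, the thrombomodulin gene that KLF2 and KLF4 activate in endothelium, had normalized counts of 5640 and 5620 in NC and 3073 and 3070 in sh-IRF1 (log2 fold change -0.87, limma adjusted p = 8.64e-24). ENG, the endoglin gene described as a target of KLF6, fell from 3289 and 3301 to 2519 and 2469 (log2 fold change -0.40, limma adjusted p = 1.51e-10), while KLF6 itself rose. ITGB7, an integrin gene described as controlled by KLF2 in lymphocytes, rose from 779 and 835 to 1681 and 1623 (log2 fold change 1.03, limma adjusted p = 4.32e-18), with KLF2 not called. The reads of ITGB7 are uncertain, since the gene ZNF740 overlaps 42.3% of its exonic bases.

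KLF4 is known for monocyte differentiation, and of 7 monocyte and macrophage genes tested 2 were higher, 3 were lower and 2 were not called (median log2 fold change 0.02). LYZ, the lysozyme gene, rose from 1824 and 1785 normalized counts to 3276 and 3218 (log2 fold change 0.85, limma adjusted p = 3.83e-20). Its reads are uncertain, since an antisense gene overlaps 34.7% of its exonic bases. FCGR1A, a receptor for immunoglobulin G, fell from 1195 and 1278 to 821 and 840 (log2 fold change -0.57, limma adjusted p = 1.84e-09). CD14, a monocyte surface gene, had 38.0 and 42.1 in NC and 10.9 and 1.87 in sh-IRF1 (log2 fold change -2.81, limma adjusted p = 8.90e-05), the last from 2 reads. Its log2 fold change was -1.78 without sh-IRF1 replicate 2 and -3.83 without sh-IRF1 replicate 1. Without the variance trend and robust shrinkage the call of CD14 was lost (limma adjusted p = 0.1). The higher count of the list was 1 without NC replicate 1 or sh-IRF1 replicate 1. These genes changed in both directions beside the fall of KLF4, and a relation between them and KLF4 was not tested. Over all 8 lists, 56 genes were tested, of which 13 were higher, 19 were lower and 24 were not called, beside 20.3% higher and 21.9% lower over all genes tested.

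**Figure D5:**
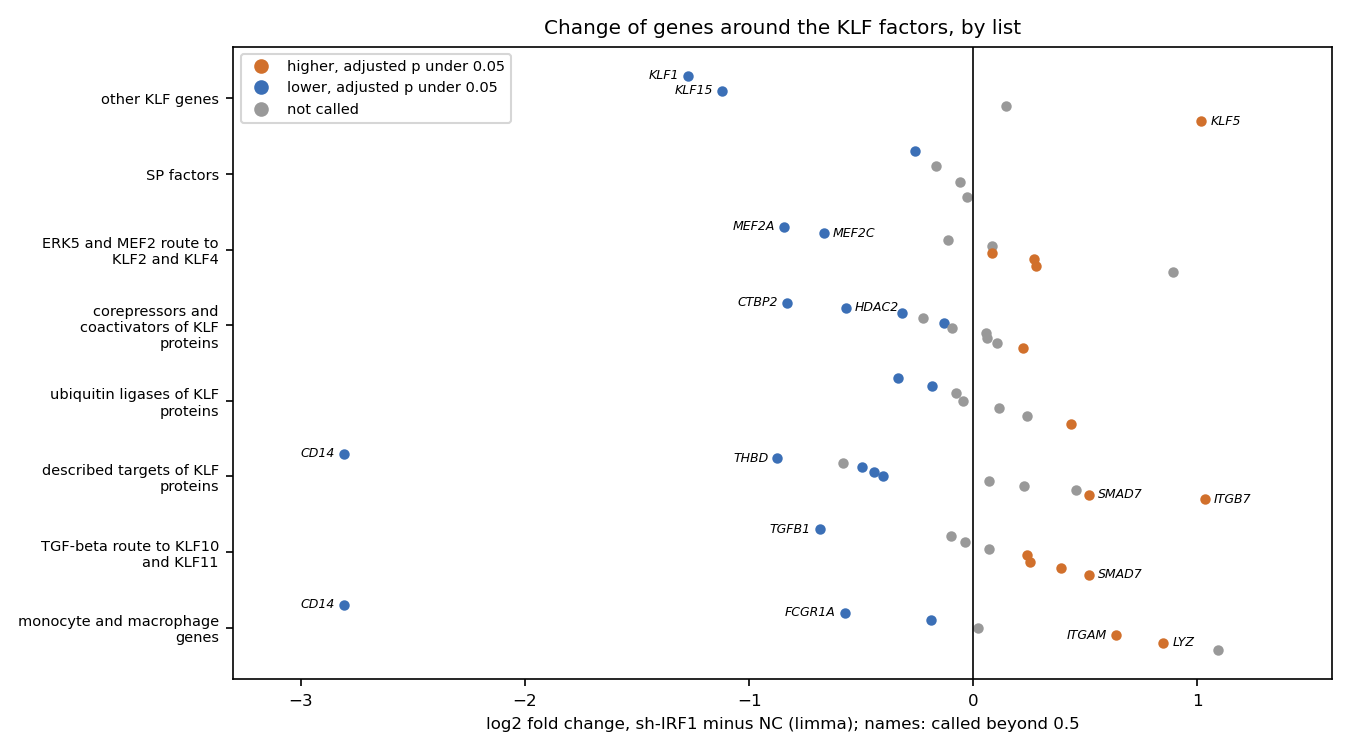
Log2 fold change (sh-IRF1 minus NC, limma) of each tested gene in the 8 lists around the KLF factors, orange for called higher, blue for called lower and grey for not called, with names for called genes beyond 0.5. Each list holds genes on both sides of 0 except the SP factors, and CD14 lies farthest out at -2.81.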

How the data were processed

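Total RNA from MV4-11 cells was sequenced in 4 libraries. The submitters' processing notes name HISAT2 (2.0.5) and hg38, and the study names FPKM and DESeq2, while the counting tool, annotation and strand setting are not given in the sources used here. The deposited table is a normalized signal, in which the authors divided each gene's reads by 1 size factor per library. Every value was within 0.01 of a whole multiple of what 1 read is worth, 100% of them, so reads were recovered. The table held 0 other columns of per-sample values.

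Differences were tested with limma (3.58.1, R 4.3.3; variance trend, robust) on log2(value + 1), a scale that understates the change of low genes, over the 14120 genes that reached 10 in 2 or more libraries. Benjamini-Hochberg adjustment ran over all of them, and genes with an adjusted p under 0.05 were called. With 2 libraries per group the calls rest on limma's spread shared across genes (43 prior degrees of freedom). Summed levels were compared with an exact permutation test. edgeR (4.0.16) and DESeq2 (1.42.0) on the recovered reads, other scalings, filters and pseudocounts, a replicate block and leaving out each library were alternatives. Count tests on recovered reads called 5948 genes (edgeR) and 4917 (DESeq2), and limma 5953. Replicates differed beyond counting noise (chi-square per gene 2.52 in NC and 2.37 in sh-IRF1), so none was a copy of another.

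Symbols were matched for 23456 of 23622 identifiers. GENCODE 44 (GRCh38) gave positions, merged exon lengths and overlapping genes. A gene overlapped by others in more than 10% of its exonic bases has uncertain reads. The members and lists were chosen with earlier results of these data known. Genes were named by rule, namely IRF1, the members, the further KLF and SP genes, and from every other list up to 3 called genes with the smallest p. CCL5, CTBP1, SIN3B, HDAC1 and MEF2D were named after their values were seen. Simulated data were used to test the code. A marker of another cell type is not reported here.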

Additional observations from a re-analysis of the deposited data

How the results depend on the processing

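The 5 member calls (KLF3, KLF4, KLF9 and KLF13 lower, KLF6 higher) held in all 14 alternatives, and the counts of members called did not change. The condition of a log2 fold change beyond 0.5 was met by 2 members lower, not 3, under scaling by total reads and without NC replicate 2. Without the variance trend and robust shrinkage, limma called 2527 of all genes and 17 listed genes, against 5953 and 32. The replicate numbers did not pair the libraries (correlation of deviations -0.0154), and with the replicate block 6050 genes were called and no member call changed. Among log2 fold changes not called with the chosen settings, total reads turned KLF2 to 0.044, KLF11 to 0.028, KLF16 to 0.020 and SP2 to 0.018, and KLF2 was 0.011 with edgeR and 0.0042 with DESeq2. With a library left out, KLF2 ranged from -0.11 to 0.10, KLF11 from -0.16 to 0.13, KLF16 from -0.057 to 0.0088, KLF12 from -0.44 to 0.74, SP1 from -0.15 to 0.036 and SP2 from -0.15 to 0.092. The cause was not tested. Of the other values for single genes and single lists, 684 kept their direction and side of the threshold or stayed near the first value, 24 lost the call, SP1 gained it without NC replicate 1 and 32 moved further. Scaling by total reads moved the median of all genes by 0.045. The summed KLF level stayed between 87.6% and 91.3% of NC under the alternatives run. At 11 to 41 reads, KLF1 and KLF15 are limited by depth.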
